A study of Mus musculus with 11 samples.

Results

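The inflammation panel measured in these corneas holds 10 interferon-stimulated antiviral effector genes among its 248 genes, and their levels are described here in corneas treated with vehicle, pan or C1. The genes were taken by symbol: the oligoadenylate synthetase genes Oasl1, Oas1a and Oas2, the Ifit genes Ifit1, Ifit2 and Ifit3, the Mx genes Mx1 and Mx2, and Ifi44 and Ifi27l2a. All 10 were present in both deposited tables. The question was whether Oasl1 moved with the other 9.

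The corneas came from female C57BL/6 mice after 5 days of desiccating stress (DS5), in which scopolamine in the drinking water and a dry draft lower the tear film. Eye drops contained phosphate-buffered saline (vehicle, 3 samples), the pan-Trk agonist pan at 10 μM (4 samples) or the TrkC agonist C1 at 10 μM (4 samples). Trk receptors are the tyrosine kinases that bind neurotrophins, and both agonists are small synthetic molecules. No unstressed cornea was measured in these tables, so every value belongs to a stressed eye. One age label gave 3 months for all samples, and a second gave 2-3M for vehicle 1 to 3 and pan 1 to 3 and 22-24M for pan 4 and C1 1 to 4. The study's methods describe mice several weeks old, which goes against the 22-24M label. C1 and vehicle cannot be told apart from this second label. The samples were labelled as cornea epithelia, and the panel holds no keratin gene by which that label could be checked.

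Interferons bind receptors at the cell surface and activate a transcription factor complex that holds STAT2 and IRF9 and binds the interferon-stimulated response element in the promoters of target genes. The products of those genes block viral replication at several steps. OAS1A and OAS2 make oligoadenylates from double-stranded RNA and so activate RNase L. OASL1 lacks that activity and is known to restrain translation of Irf7, which encodes a transcription factor of interferon production. IFIT proteins bind viral RNA or translation factors, and MX proteins are dynamin-like GTPases. Mx1 is known to be defective in most inbred laboratory strains, C57BL/6 among them, so its transcript there does not report a working protein.

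The promoters of Oasl1 and of 3 genes it is compared with are shown because they differ in the response-element letters that were searched: GAAA, any 2 bases and a second GAAA, on either strand. RefSeq windows (GRCm38.p6, 250 bases before to 50 after each start) were found for 6 of the 10 genes. Oas1a, Ifit1 and Ifit3 held 2 matches each, and the windows of Oasl1, Ifit2 and Ifi44 held none. The letters occurred in 3.44% of the 32851 windows of all genes. Below are 160 bases upstream of each start, written 5′ to 3′ on the gene's strand, with matches in capitals. The matches in Oas1a overlap. Those in Ifit1 and Ifit3 lie on the opposite strand and read as the reverse complement.
The Oasl1 stretch is chr5:114923080-114923239, plus strand, that of Oas1a chr5:120907526-120907685, minus strand, that of Ifit1 chr19:34640729-34640888, plus strand, and that of Ifit3 chr19:34583369-34583528, plus strand.
Oasl1: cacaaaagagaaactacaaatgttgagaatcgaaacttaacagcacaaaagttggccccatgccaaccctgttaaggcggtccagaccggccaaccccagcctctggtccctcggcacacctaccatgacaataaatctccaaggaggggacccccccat
Oas1a: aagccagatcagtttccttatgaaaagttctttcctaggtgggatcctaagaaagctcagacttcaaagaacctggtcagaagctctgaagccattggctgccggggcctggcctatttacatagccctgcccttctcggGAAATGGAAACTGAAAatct
Ifit1: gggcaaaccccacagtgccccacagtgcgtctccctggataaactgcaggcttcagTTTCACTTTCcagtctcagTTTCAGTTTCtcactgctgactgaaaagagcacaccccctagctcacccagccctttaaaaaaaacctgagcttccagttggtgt
Ifit3: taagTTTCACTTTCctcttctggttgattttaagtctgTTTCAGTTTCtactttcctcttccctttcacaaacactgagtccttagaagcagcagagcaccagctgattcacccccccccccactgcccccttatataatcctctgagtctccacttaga
The matches began 20 and 14 bases before the start in Oas1a, 104 and 85 bases before it in Ifit1, and 156 and 122 bases before it in Ifit3. A match describes letters only, and the absence of one in Oasl1 says only that they are not in this window.

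All values below are normalized counts, that is, probe counts scaled by the authors to housekeeping genes, and they compare samples of 1 gene, not genes with each other. Sequencing is not involved: each probe is counted directly. Summed over the 248 genes, the samples held 64156 to 646446 probe counts, with 91955 to 133098 in vehicle and 165828 to 525997 in C1, which do not overlap. In bulk tissue, fewer cells of a type and less RNA per cell cannot be told apart. The labels give no animal for a sample, so the p-values measure the spread between these samples.

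**Figure D1:**
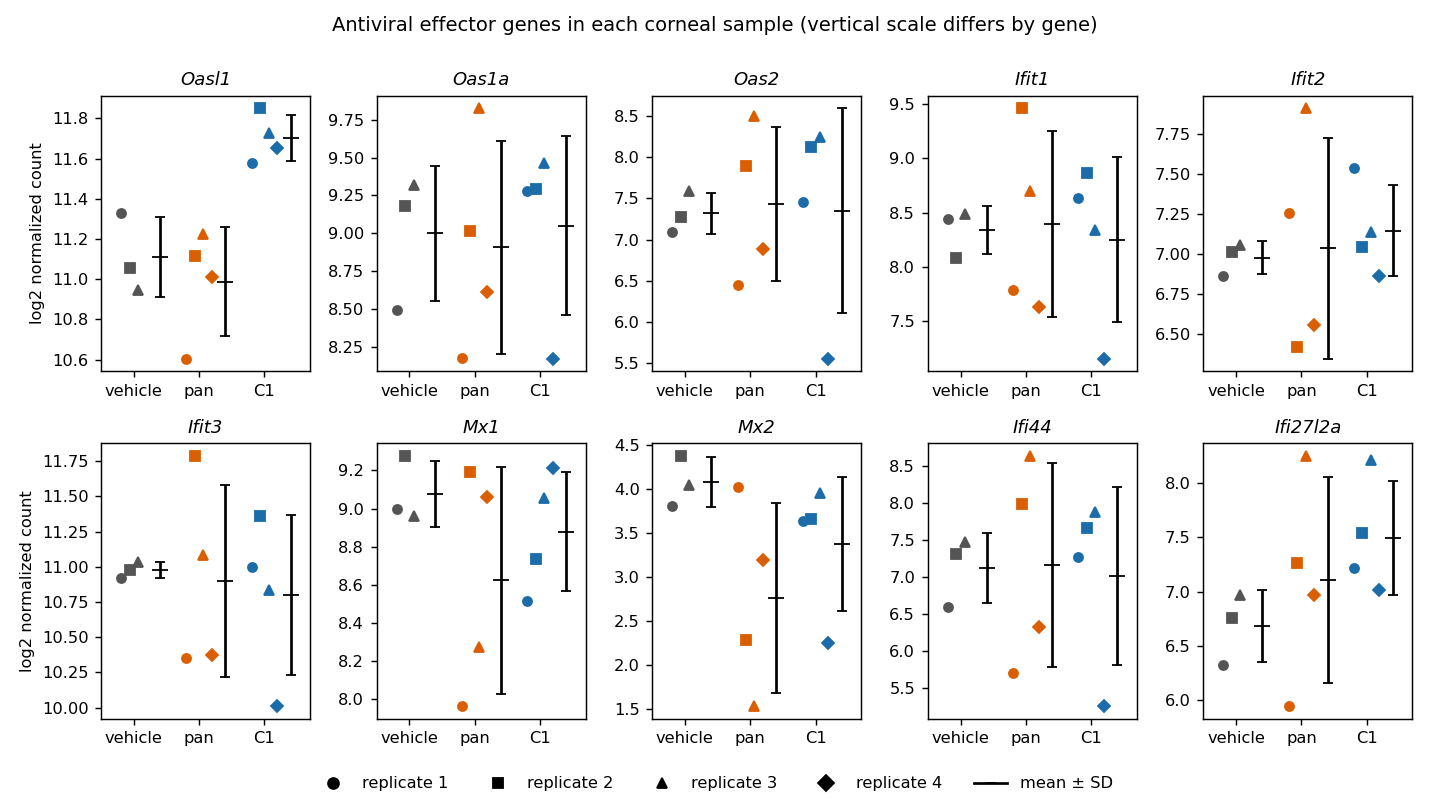
Log2 normalized count (vertical axis, scaled by gene) of each antiviral effector gene in 3 vehicle, 4 pan and 4 C1 samples. Symbols mark replicates, and the bar beside them is the mean ± SD. For Oasl1, all 4 C1 samples lie above every vehicle and pan sample.

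Oasl1 had its highest levels in C1 corneas, although neither difference passed the test across the panel. It was 2573, 2129.6 and 1970.2 normalized counts in vehicle 1 to 3. It was 1558, 2221, 2391 and 2060.5 in pan 1 to 4, and 3055, 3691, 3393 and 3221 in C1 1 to 4. The C1 samples thus form a group of their own, whereas vehicle and pan overlapped. Means were 2224 ± 312 (SD, n = 3) in vehicle, 2057 ± 359 (SD, n = 4) in pan and 3340.2 ± 271 (SD, n = 4) in C1.

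Against vehicle, the log2 difference of Oasl1 in C1 was 0.59 (SE 0.15, 95% interval 0.25 to 0.94), a 1.51-fold level, higher in 4 of 4 samples. It did not pass across the panel (limma, adjusted p = 0.211), where 0% of the 248 genes were called and 26 had an unadjusted p under 0.05. Oasl1 was the 6th gene by p. With a prior variance that depends on the mean level, limma called it (adjusted p = 0.0379). Over all alternatives its difference stayed between 0.51 and 0.70 and its adjusted p between 0.0379 and 0.807. In the exact permutation test, Oasl1 gave p = 0.0571, the smallest that 3 against 4 samples allow.

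Against pan at the same dose, Oasl1 was 0.71 higher in C1 on the log2 scale (SE 0.20, 95% interval 0.27 to 1.16), a 1.64-fold level. This difference did not pass either (limma, adjusted p = 0.256), although the interval lay above 0 and the exact permutation p was 0.0286, the smallest that 4 against 4 samples allow. The median gene of the panel was itself 0.23 higher in C1 than in pan, or 0.13 among the 131 genes whose log2 value averaged 5 or more. After centring on the median of those 131 genes, the Oasl1 difference was 0.58. Among the samples labelled 22-24M, the single pan sample had 2060.5 normalized counts of Oasl1, below the 3055 to 3691 of the C1 samples. Pan against vehicle gave a log2 difference of -0.12 for Oasl1 (95% interval -0.68 to 0.44, limma adjusted p = 0.915).

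Macrophage markers also had higher means in C1. All 7 of the list (Tyrobp, C1qa, C1qb, Itgb2, Mrc1, Cd163 and Trem2) had a higher mean in C1 than in pan. Their median log2 difference was 0.77. All 7 also had a higher mean in C1 than in vehicle, with a median of 0.38. Of the 248 panel genes, 181 had a higher mean in C1 than in pan and 117 a higher mean than in vehicle, with medians of 0.23 and -0.02. None of the 7 markers passed the adjusted test (limma). Their summed normalized counts ranged from 186 to 293 in vehicle, 144 to 209 in pan and 243 to 330.2 in C1. Trem2 was at or under 3 counts in every vehicle sample. Oasl1 also had r = 0.57 with the log2 total count over the 11 samples (Spearman's rho 0.48, permutation p = 0.0697 and 0.138). The part of these cells and totals in the Oasl1 difference was not tested.

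The classical oligoadenylate synthetase genes did not separate the groups. Oas1a was 360.4, 581 and 639.7 normalized counts in vehicle, 289, 517, 907 and 391 in pan, and 620.4, 628, 705 and 289 in C1. Its highest and lowest values both came from treated corneas, and the groups overlapped. Oas2 was 136, 154 and 192 in vehicle, 87.6, 237, 362 and 119 in pan, and 176, 279, 304 and 47.1 in C1. The fourth C1 sample held the least Oas2 of all 11, and the third pan sample the most. Log2 differences of Oas1a were -0.09 for pan and 0.05 for C1 against vehicle, and those of Oas2 were 0.12 and 0.03. The C1 values of both fell below 0 after median centring, at -0.018 and -0.040. With SE of 0.37 to 0.66, limma adjusted p was 0.859 or more for both genes in all 3 comparisons.

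The Ifit genes varied within each treated group rather than between groups. Ifit1 was 348, 272 and 360.2 normalized counts in vehicle, 221, 705, 417 and 198 in pan, and 399, 468, 324 and 143 in C1. Ifit3 was 1936, 2019 and 2094 in vehicle, 1308, 3534, 2170.4 and 1330.1 in pan, and 2043, 2624, 1826 and 1032 in C1. For these genes the vehicle values lay inside the range of each treated group. Pan 2 was the highest sample of both and C1 4 the lowest of both. Ifit2 was 116, 129 and 133 in vehicle, 153, 85.4, 241 and 94.1 in pan, and 186, 132, 141 and 116 in C1, with its peak in pan 3. No Ifit gene differed by more than 0.18 on the log2 scale in any comparison, and the smallest limma adjusted p was 0.787. The intervals were wide: that of Ifit1 in C1 against pan ran from -1.27 to 0.98.

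Ifi44, whose product accumulates after interferon and restricts some viruses, was 96.1, 159 and 178 normalized counts in vehicle. It was 51.9, 254, 399.9 and 80.2 in pan, and 154, 203, 235 and 38 in C1. The highest pan sample held 7.70 times the lowest, and the highest C1 sample 6.18 times the lowest, against 1.85 times in vehicle. The group means differed by 0.15 or less on the log2 scale (limma adjusted p 0.928 or more).

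Ifi27l2a, an interferon-induced gene of the IFI27 family, was the other member whose C1 and vehicle values did not overlap. It was 80.1, 108 and 125 normalized counts in vehicle, 61.7, 154, 304 and 126 in pan, and 149, 186, 296 and 129.6 in C1. The lowest C1 sample lay just above the highest vehicle sample, and pan spanned both groups. The log2 difference of C1 against vehicle was 0.81 (SE 0.31, 95% interval 0.07 to 1.56, 4 of 4 samples higher) and did not pass (limma, adjusted p = 0.436). Against pan it was 0.39 (95% interval -0.68 to 1.46, limma adjusted p = 0.676), and without pan 1 it was 0.00.

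The Mx genes had their highest means in vehicle. Mx1 was 511, 620.0 and 498 normalized counts in vehicle, 249.9, 586, 310.1 and 533 in pan, and 366, 426, 532 and 592 in C1. Its low values were pan 1 and pan 3, and all groups overlapped. Mx1 differed from vehicle by -0.45 in pan and -0.20 in C1 on the log2 scale (limma adjusted p = 0.594 and 0.787). Mx2 was 14.0, 20.7 and 16.4 in vehicle, 16.2, 4.88, 2.90 and 9.13 in pan, and 12.4, 12.6, 15.48 and 4.75 in C1, from 1 to 30 probe counts. Its difference in pan was -1.32 (SE 0.55, limma unadjusted p = 0.0448, adjusted p = 0.371). With a floor of 20 normalized counts this became -0.018, since nearly every value of Mx2 lay under that floor. The mean of the 62 lowest genes of a sample was 4.81 to 11.2 normalized counts, so the low Mx2 values were at or under that level. By group it was 6.65 to 11.2 in vehicle, 4.81 to 6.34 in pan and 5.50 to 9.60 in C1. This level was thus lower in pan than in vehicle, as Mx2 was, and its part in the Mx2 difference was not tested.

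**Figure D2:**
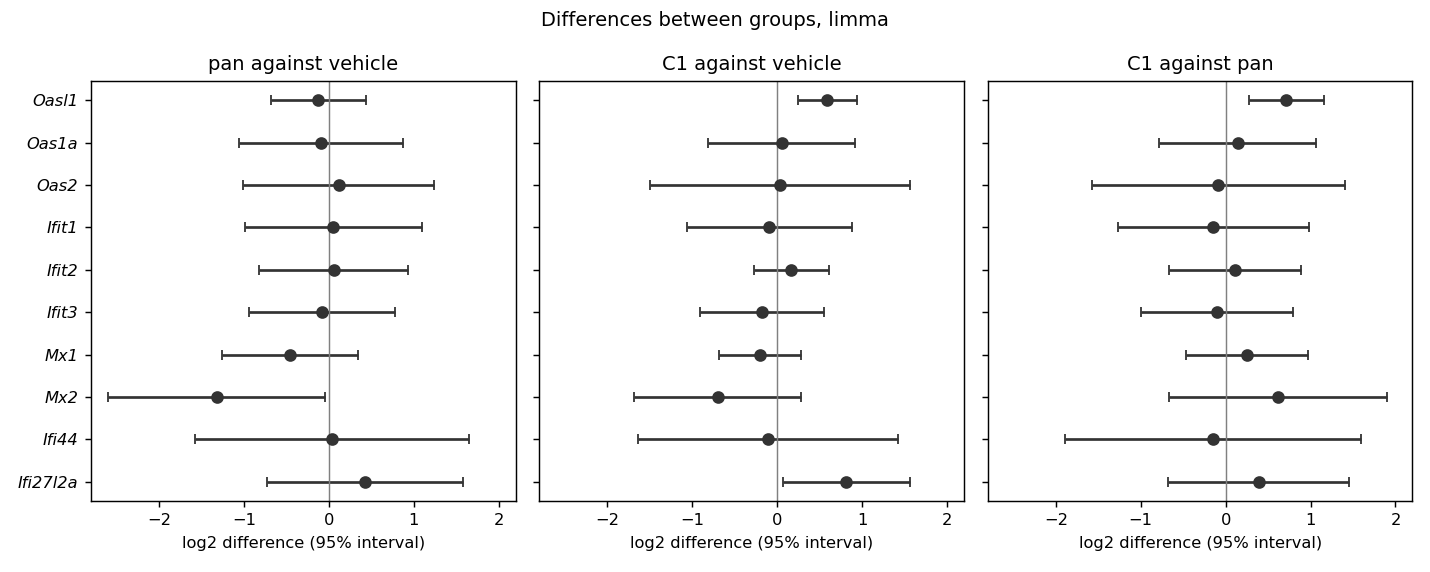
Log2 difference (horizontal axis) of each antiviral effector gene with its 95% interval from limma, in pan against vehicle (n = 4 and 3), C1 against vehicle (4 and 3) and C1 against pan (4 and 4). The interval of Oasl1 lies above 0 in both comparisons of C1. That of Ifi27l2a in C1 against vehicle also lies above 0, and that of Mx2 in pan against vehicle lies below 0. All other intervals hold 0.

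None of the 10 genes was called in any comparison (limma, adjusted p under 0.05). The panel background was 2.02% of genes called in pan against vehicle, 0% in C1 against vehicle and 0.403% in C1 against pan. At an unadjusted p under 0.05, 1, 2 and 1 of the 10 passed, against 12.5%, 10.5% and 15.3% of the panel. Groups did not overlap, with C1 higher, for 2 of the 10 against vehicle and 1 of the 10 against pan, where the panel gave 6.05% and 7.66%. Against vehicle, pan was higher without overlap for 0 of the 10 (panel, 2.42%) and lower for 0 (panel, 8.47%), or 10.9% of the panel in either direction. C1 was lower without overlap for 0 of the 10 against vehicle (panel, 4.03%) and for 0 against pan (panel, 0.403%), where either direction gave 10.1% and 8.06% of the panel. The median log2 difference of the 10 genes was -0.02, -0.03 and 0.13 in the 3 comparisons, and that of all 248 genes was -0.20, -0.02 and 0.23. Comparisons with vehicle share the vehicle samples, and those with pan or C1 share treated samples, so these counts are not independent.

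Most of these genes had a wide spread between replicates. Among the 131 genes whose log2 value averaged 5 or more, Ifi44 had the largest pooled within-group SD (1.15), and Oas2 the 3rd largest (0.96). Ifit1 (0.71) was the 5th, Ifi27l2a (0.68) the 6th, Oas1a (0.60) the 11th and Ifit3 (0.54) the 15th. The median gene had an SD of 0.27. Ifit2 (0.46) and Mx1 (0.42) were the 24th and 29th. Oasl1 (0.21) was the 94th, below the median gene. In vehicle alone, however, the SD of Oasl1 (0.20) was above that of the median gene (0.14), and those of Ifit2 (0.10) and Ifit3 (0.06) were below it. Mx2 was too low for this ranking. No test was made of these ranks.

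**Figure D3:**
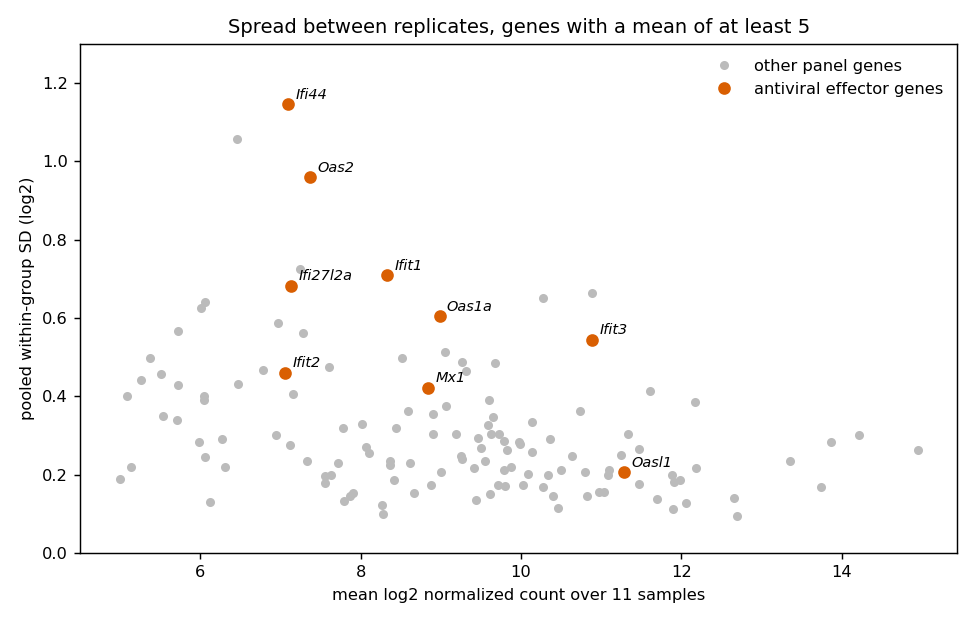
Pooled within-group SD (vertical axis, log2) against the mean log2 normalized count over 11 samples (horizontal axis) of the 131 panel genes that averaged 5 or more, with 9 antiviral effector genes named. Ifi44 lies at the top at 1.15 and Oasl1 in the lower part at 0.21.

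Several of the variable genes varied together. Oas1a, Oas2, Ifit1, Ifit3, Ifi44 and Ifi27l2a were grouped after their values were seen, and the group itself is a description. All 6 lay below their group mean in pan 1, pan 4 and C1 4. All 6 lay above it in vehicle 3, pan 2, pan 3, C1 2 and C1 3. Of the samples with all 6 genes below, pan 1 carries the 2-3M label, and pan 4 and C1 4 the 22-24M label. Pan 1 had the lowest total count (64156) and pan 4 the highest (646446), and C1 4 had 525997. Over the 11 samples, r of the 6 genes with the log2 total ran from -0.43 for Ifit1 to 0.30 for Ifi27l2a. The part of the label and the totals in this pattern was not tested. In C1 4 the log2 deviations of the 6 genes from their group means ran from -1.79 to -0.48, while that of Oasl1 was -0.05. In pan 1 they ran from -1.47 to -0.55, and that of Oasl1 was -0.38. Where all 6 lay above, Oasl1 was 0.13 in pan 2, 0.23 in pan 3, 0.15 in C1 2 and 0.03 in C1 3. It went the other way in vehicle 3 (-0.17) and in pan 4 (0.02).

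**Figure D4:**
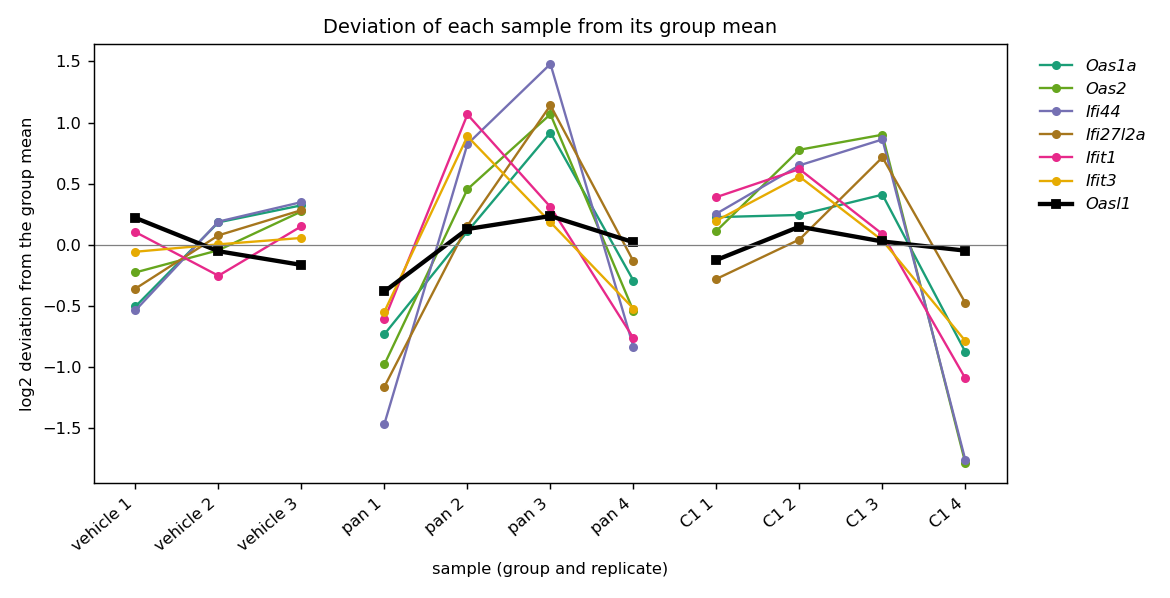
Log2 deviation from the group mean (vertical axis) of 6 antiviral effector genes (coloured circles) and Oasl1 (black squares) in each sample (horizontal axis). Lines join samples of a group only as a guide. The 6 genes dip together in pan 1, pan 4 and C1 4, and in C1 4 Oasl1 stays near 0.

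Over the 11 samples, Pearson's r for the 15 pairs of these 6 genes ranged from 0.35 to 0.97, and 4 of the pairs passed. None of the 4 held Ifi27l2a, whose r with the other genes of the group ran from 0.35 with Ifit3 to 0.79 with Oas1a. Ifit1 and Ifit3 had r = 0.97, Oas2 and Ifi44 0.97, Oas1a and Ifi44 0.94, and Oas1a and Oas2 0.90. Spearman's rho of those 4 pairs was 0.95, 0.96, 0.84 and 0.92. For r, each had a permutation p adjusted to 0.0121 over the 2425 pairs of one of the 10 genes with any panel gene. The rank measure did not pass for Oas1a with Ifi44 (adjusted permutation p = 0.229) or Oas1a with Oas2 (0.0658), and passed for the remaining pairs. The 4 pairs are 8.89% of the 45 pairs among the 10 genes, and 1.40% of the 2425 pairs passed. Without the 2 samples farthest from the median of the first gene, r of the 4 pairs was 0.84 to 0.94. Taken as deviations from group means, r was 0.92 to 0.98, but no pair of the 2425 passed. For Oas2 with Ifi44 the exact within-group permutation p was 2.9e-04, the smallest they can give, and the adjusted p was 0.117. Within the 6 samples labelled 2-3M, r was 0.91 to 0.98.

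Stat2, which encodes a part of the complex that binds the response element, was low in the same samples. It was 693, 625 and 629.9 normalized counts in vehicle, 474, 708, 632 and 490.3 in pan, and 653, 778, 625 and 484 in C1. Its 3 lowest samples were pan 1, C1 4 and pan 4, where all 6 genes lay below their group means. Stat2 had r = 0.87 with Ifit1 (adjusted permutation p = 0.0499), and the rank measure did not pass (rho 0.90, adjusted permutation p = 0.101). Its r with Ifit3, 0.89, did not pass (rho 0.85, adjusted permutation p = 0.0505 for r). By r over the 11 samples, Stat2 was among the 5 nearest genes of Ifit1 and Ifit3 but not of Oas1a, Oas2, Ifi44 or Ifi27l2a. By deviations from group means it was also among the 5 nearest of Oas2. Whether Stat2 drives these genes was not tested.

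Oasl1 did not clearly follow the pattern of the 6 genes across the 11 samples. Its r with the other 9 genes had a median of 0.19, from -0.13 with Mx2 to 0.58 with Ifi27l2a, and its median r with all panel genes was 0.24. No pair passed. The nearest, Ifi27l2a, had rho = 0.63 and adjusted permutation p of 0.412 for r and 0.628 for rho over the 247 other genes. The median depended on how samples were treated. It was 0.46 for deviations from group means, 0.51 within the 6 samples labelled 2-3M and 0.45 for residuals on the log2 total count. It was -0.12 without the 2 samples farthest from the median of Oasl1, pan 1 and C1 2. Without pan 1 alone the median r was -0.01, and without C1 4 alone it was 0.43. Within groups, Oasl1 and the 6 variable genes had r of 0.39 to 0.61, none of which passed. These 11 samples do not settle whether Oasl1 shares a weaker movement with the 6 genes.

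**Figure D5:**
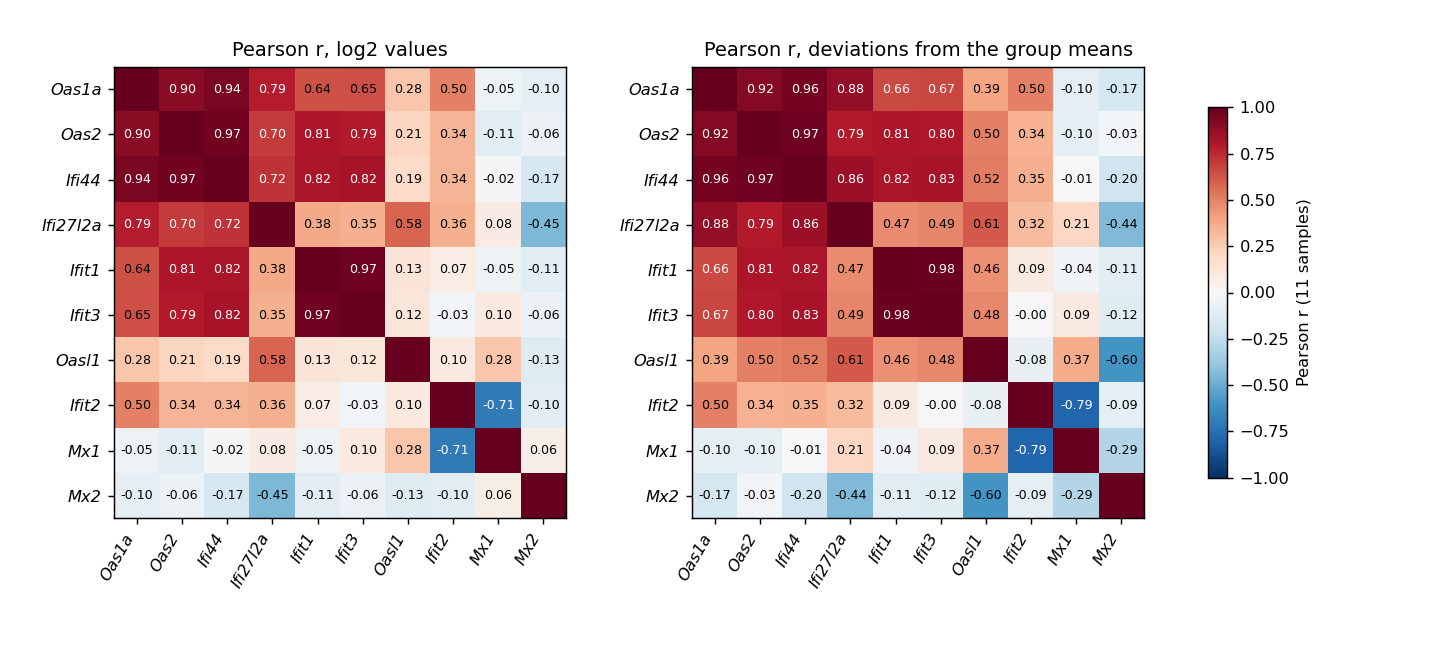
Pearson r over 11 samples for each pair of antiviral effector genes, from log2 values (left) and from deviations from the group means (right). Red is positive and blue negative. Oas1a, Oas2, Ifi44, Ifi27l2a, Ifit1 and Ifit3 form the red block, with r of 0.35 to 0.97 on the left. Oasl1 has r of 0.12 to 0.58 with them on the left and 0.39 to 0.61 on the right.

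The panel genes nearest to Oasl1 were Arg1 (r = 0.86), Il15 (0.81), Tcf4 (0.81), Smad7 (0.80) and Tlr5 (0.74), none of them an antiviral effector. Arg1, which encodes an arginine-degrading enzyme, had an adjusted permutation p of 0.0420 for r over the 247 other genes and 0.363 for rho, so the rank measure did not pass. The other 4 did not pass. By deviations from group means the nearest 5 were Arg1, Irf1, Map2k1, Ccl22 and Irf7. Irf1 and Irf7 encode interferon regulatory factors, and their r with Oasl1 on that scale was 0.87 (exact permutation p = 0.0205, adjusted p = 0.518) and 0.77 (exact permutation p = 0.0356, adjusted p = 0.606), so neither passed. Over the 11 log2 values their r was 0.70 and 0.56, with rho of 0.73 and 0.35. Ifit2 and Mx1 also stood outside the block, and ran opposite to each other with r = -0.71 (rho -0.75, adjusted permutation p = 0.331 over the 2425 pairs).

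Of the other interferon genes of the panel, 15 are given here: the ligands Ifna1, Ifnb1 and Ifng, the sensors Tlr3, Tlr7, Tlr8 and Tlr9, 5 transcription factor genes (Stat2, Irf1, Irf3, Irf5 and Irf7), and Cxcl9, Cxcl10 and Iigp1. In pan against vehicle 1 of the 15 fell and none rose (panel, 2.02% called). None of the 15 was called in C1 against vehicle (panel, 0%) or C1 against pan (panel, 0.403%). In pan, 5 of the 15 lay below vehicle without overlap (panel, 8.47%): Ifng, Tlr7, Irf3, Cxcl9 and Iigp1. Only Irf3 of these is among the 131 genes whose log2 value averaged 5 or more, of which 3 lay below vehicle without overlap. Pan 1 to 3 held 1, 3 and 1 probe counts of Tlr7, 1, 2 and 2 of Cxcl9, and 1, 6 and 5 of Iigp1, at or near the floor of 3. Irf3, a factor that induces interferon genes, differed by -0.55, Cxcl9, a chemokine gene, by -1.06, and Iigp1, an interferon-induced GTPase gene, by -1.22, with limma adjusted p of 0.460, 0.210 and 0.460. In C1, 2 of the 15 lay below vehicle without overlap (panel, 4.03%), Ifng and Cxcl9. Ifng, the type II interferon, was 12, 18.4 and 16.4 normalized counts in vehicle, 3.25, 2.44, 2.90 and 3.15 in pan, and 4.13, 5.61, 3.61 and 9.50 in C1. Vehicle lay above every treated sample, and all 11 values were under 20. The log2 difference of Ifng in pan was -2.40 (SE 0.24, limma adjusted p = 0.00246), but pan 1 to 3 held only 1 count each, under the floor of 3. Its difference in C1 was -1.54 and did not pass (limma, adjusted p = 0.211).

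Type I ligands were near the floor: Ifna1 ranged from 1 to 30 counts and Ifnb1 from 1 to 23, with no difference past the test. Tlr7, a sensor of single-stranded RNA, differed by -2.48 in pan and -1.60 in C1 against vehicle (limma adjusted p = 0.0912 and 0.370). Its values in pan 1 to 3 were 1, 3 and 1 probe counts, at or under the floor. Tlr3, a sensor of double-stranded RNA, was 102, 127 and 125 normalized counts in vehicle, 101, 97.6, 119 and 240.1 in pan, and 122, 220.2, 299 and 351 in C1. Its difference of 0.97 in C1 did not pass (limma, adjusted p = 0.436). Pan 4, the pan sample of the 22-24M label, was the highest pan sample of Tlr3. Stat2, Irf1 and Irf7 differed by 0.28 or less in all 3 comparisons, with limma adjusted p of 0.681 or more.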

How the data were processed

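RNA of 11 cornea samples was hybridised to the mouse Inflammation panel of NanoString, which counts hybridised probes without amplification. The authors deposited 2 tables of log2 normalized counts per gene and sample, divided by the geometric mean of housekeeping genes in ROSALIND, and left out samples that failed their quality control. Vehicle values were identical in both tables and were used once. The tables also hold the authors' fold changes, p-values and mean levels, which were not used. In each sample the values were whole multiples of 1 step (tolerance 0.01 counts), which gave the probe counts and totals. The floor is 3 counts, and intervals cover the spread between samples. Members and gene lists were chosen with earlier results of these data known, Oasl1 included. Named genes were all 10 members, the 5 nearest to Oasl1, and pathway genes; 1 panel gene of that list was fitted but is not reported here.

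Each pair of groups was fitted with limma 3.58.1 (lmFit and eBayes, R 4.3.3) on the log2 values of all 248 genes, without covariates. Adjusted p (Benjamini-Hochberg) under 0.05 was called. Permutation tests were two-sided, exact for single values and with 100000 resamples for correlations over 11 samples. The fit and correlations were tested on simulated data. Of the gene IDs, 247 were found in the RefSeq table (GRCm38.p6), which gave mouse symbols and promoters. Alternatives were a filter, centring, a floor, a pseudocount, background subtraction, another prior variance, other sample sets, covariates and single samples left out. Leaving single samples out of the Oasl1 correlations was chosen after seeing the data.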

Additional observations from a re-analysis of the deposited data

Results flagged for a closer look

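In 60 groups of 4 samples, 4 held a sample whose gap to the others passed Dixon's criterion, where chance gives 3. In C1 4, Oas1a was 8.17 on the log2 scale against 9.28 to 9.46 in the other C1 samples. In pan 1, the sample with the lowest total count, Irf1 stood at 12.30 (pan 2 to 4, 12.66 to 12.70), Cxcl10 at 1.70 (3.03 to 3.29) and Arg1 at 11.44 (11.91 to 11.95). The Cxcl10 value of pan 1 is 1 probe count.

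For 2 genes near Oasl1, every pan sample lay below the vehicle mean and every C1 sample above it. The C1 value exceeded the pan value by 0.80 on the log2 scale for Il15 (pan -0.37, C1 0.42 against vehicle) and by 0.39 for Tcf4 (pan -0.17, C1 0.22). The C1 against pan difference did not pass for either gene (limma, adjusted p = 0.150 and 0.320).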

How the results depend on the processing

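Of 517 alternative values of the 10 genes' differences, 447 kept their direction and 70 changed sign, and 1 passed the test, that of Oasl1 in C1 against vehicle with a prior variance that depends on the mean (adjusted p = 0.0379). Its differences in both comparisons of C1 kept their sign under all alternatives. The sign changes all fell on differences whose 95% interval held 0, and their cause was not tested. The count of panel genes called in pan against vehicle, 5, was 1 with only the 131 genes above the level filter, 2 with a floor of 20 normalized counts, 3 after background subtraction, 9 with a term for the second age label and 8 with a term for the log2 total. In C1 against vehicle, where 0 were called, it was 1 with the level filter, 1 after background subtraction and 2 with the mean-dependent prior, 1 of them an antiviral effector gene. In C1 against pan, where 1 was called, it was 2 with the floor and 0 with median centring, a pseudocount of 10, the mean-dependent prior, all 3 groups in one fit, the second age label or the total as a term. Without single samples the counts ranged from 1 to 7, 0 to 0 and 0 to 1, and no antiviral effector gene was called (0 to 0).

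Whether the replicate numbers pair the samples was not tested. Over the 131 genes that averaged 5 or more, deviations of samples with the same number had r from -0.05 to 0.57. Those of samples with differing numbers had r from -0.73 to 0.68. With the replicate number as a block, 5, 0 and 1 genes were called and none of the 10 in the 3 comparisons. The replicate block turned the sign of Oas1a (0.0059) and Ifit3 (0.10) in pan against vehicle, and of Ifit1 (0.27), Ifit3 (0.086) and Ifi44 (0.48) in C1 against vehicle.

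With the second age label as a term, the label's effect is estimated from pan 4 alone, the only 22-24M sample outside C1, and C1 against pan becomes C1 against that 1 sample, so these values do not separate C1 from the label. There, Oas1a (0.0059) and Ifit3 (0.10) turned in pan against vehicle, and Ifit1 (0.93), Ifit3 (0.52) and Ifi44 (1.006) in C1 against vehicle. In C1 against pan, Oas2 (0.46), Ifit1 (0.62), Ifit3 (0.42), Mx1 (-0.18) and Ifi44 (0.69) turned. With the log2 total as a term, Ifit1 (0.40), Ifit3 (0.15) and Ifi44 (0.41) turned in C1 against vehicle, and Oas2 (0.23), Ifit1 (0.26), Ifit3 (0.17), Mx1 (-0.072) and Ifi44 (0.28) in C1 against pan. Median centring turned Oas1a (-0.018) and Oas2 (-0.040) in C1 against vehicle and Ifit2 (-0.028) in C1 against pan. Leaving out single samples turned signs within these ranges. In pan against vehicle they were -0.20 to 0.0064 for Oasl1, -0.40 to 0.15 for Oas1a, -0.24 to 0.44 for Oas2, -0.30 to 0.31 for Ifit1, -0.23 to 0.26 for Ifit2, -0.37 to 0.11 for Ifit3 and -0.45 to 0.53 for Ifi44. In C1 against vehicle they were -0.20 to 0.35 for Oas1a, -0.27 to 0.63 for Oas2, -0.30 to 0.27 for Ifit1, -0.36 to 0.086 for Ifit3 and -0.40 to 0.48 for Ifi44. In C1 against pan they were -0.10 to 0.45 for Oas1a, -0.41 to 0.51 for Oas2, -0.40 to 0.22 for Ifit1, -0.10 to 0.40 for Ifit2, -0.29 to 0.20 for Ifit3, -0.64 to 0.44 for Ifi44 and -1.1e-05 to 0.77 for Ifi27l2a.

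The median r of Oasl1 with the other 9 genes, 0.19, was 0.46 for deviations from group means, 0.07 after median centring, -0.12 without the 2 samples farthest from its median, 0.51 within the samples labelled 2-3M and 0.45 for residuals on the log2 total, and ranged from -0.0096 to 0.43 without single samples. Single r values changed sign for Ifit2 with deviations (-0.078) and within 2-3M (-0.059), and for Ifit1 (-0.10), Ifit3 (-0.16) and Mx1 (-0.055) with centring. Without the 2 farthest samples they were -0.12 for Oas1a, -0.17 for Oas2, -0.23 for Ifit1, -0.35 for Ifit3, -0.11 for Mx1 and -0.22 for Ifi44.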
